A study of Mus musculus with 32 samples.

Results

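A set of 10 genes of antigen presentation was followed in the gastrocnemius (GAS) muscle of the calf after its nerve was cut. Its members were chosen by name from the 33397 genes of the deposited table: H2-K1, H2-D1, B2m, Tap1, Tap2, Psmb8, Psmb9, Psmb10, Cd74 and H2-Aa. All 10 passed the filter on low values (4 or more samples with 0.1 FPKM or more), as did 22071 genes in all. FPKM is the number of sequenced fragments of a gene per unit of exon length and per total of fragments in that sample.

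RNA came from GAS muscles of C57BL/6 mice, described by the study as male C57BL/6J mice of 6 to 8 weeks from which a piece of the left sciatic nerve was removed. In its sham group, surgery left the nerve whole. There were 4 samples at each of 0, 1, 3, 5, 7, 14, 21 and 28 d, and the 4 samples of 0 d served as the reference. The labels list sciatic nerve transection for every sample, the 0 d samples included, whereas the study's text speaks of a sham group, so how the reference muscles were treated depends on the source. Each sample is RNA of a whole muscle, in which fewer cells of a type and less RNA per cell cannot be told apart. The study's text calls the samples of its analyses biologically independent, whereas the labels do not tie each sample to an animal. If any shared an animal, p-values would measure only the spread between these samples.

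Class I molecules are carried by most nucleated cells and show peptides of the cell's own proteins to CD8 T cells. The peptides are cut by the proteasome, pumped into the endoplasmic reticulum by the transporter Tap1-Tap2 and loaded onto a heavy chain (H2-K1 or H2-D1) bound to B2m. Under interferon gamma the catalytic subunits Psmb5, Psmb6 and Psmb7 are replaced by Psmb8, Psmb9 and Psmb10, which gives the immunoproteasome. Class II molecules show ingested proteins to CD4 T cells and are made mainly by dendritic cells, B cells and macrophages. H2-Aa is a chain of a class II molecule and Cd74, the invariant chain, guides class II molecules to the compartment where they are loaded. Resting muscle fibres carry little of either class.

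In GRCm38, 7 of the 10 genes lie on chromosome 17 in the mouse MHC. H2-K1 covers 33996017 to 34000347, followed by Psmb9 (34181987 to 34187764), Tap1 (34187553 to 34197225), Psmb8 (34197721 to 34201454), Tap2 (34203527 to 34216321), H2-Aa (34282744 to 34287823) and H2-D1 (35262730 to 35267499). B2m lies on chromosome 2 (122147686 to 122153083) and Psmb10 on chromosome 8 (105935735 to 105938444). Exons of Tap1 and Psmb9 overlap by 212 bases on opposite strands. Psmb8 shares 498 bases with the antisense gene Gm20496, and Tap2 shares 165 bases with it and 533 with Gm15821. Whether the counting used strand is not given in the sources used here, so fragments in these stretches cannot be assigned to either partner. Fragments of H2-K1, H2-D1 and the H2-Q and H2-T genes, which are near-identical in parts, are uncertain between each other.

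RefSeq promoter windows (GRCm38.p6, from 250 bases before to 50 bases after a start site) were found for 8 of the 10 genes, all but Tap2 and Cd74. The windows of H2-K1, H2-D1, B2m and H2-Aa each held TGACG followed after 20 or 21 bases by ATTGG, an order found in 54 of 32851 windows (0.164%). TGACG is the core of the X2 box and ATTGG the reverse complement of CCAAT, the core of the Y box, elements known from MHC promoters and bound there together with the RFX complex. The spacing was chosen after the matches had been seen. The 150 bases before the start site are shown because 4 genes that differ in size of response share this layout. Capitals mark TGACG and ATTGG, and in B2m also GAAACTGAAA, which matches the interferon-stimulated response element (GAAA, any 2 bases, GAAA).

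B2m, chr2:122147537-122147686, plus strand: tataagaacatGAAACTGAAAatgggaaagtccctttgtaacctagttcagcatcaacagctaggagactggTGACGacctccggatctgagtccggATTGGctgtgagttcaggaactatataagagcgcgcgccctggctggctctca
H2-K1, chr17:34000348-34000497, minus strand: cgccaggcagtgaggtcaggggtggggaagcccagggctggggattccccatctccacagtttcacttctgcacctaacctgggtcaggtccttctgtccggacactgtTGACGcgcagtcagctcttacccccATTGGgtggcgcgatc
H2-D1, chr17:35262944-35263093, plus strand: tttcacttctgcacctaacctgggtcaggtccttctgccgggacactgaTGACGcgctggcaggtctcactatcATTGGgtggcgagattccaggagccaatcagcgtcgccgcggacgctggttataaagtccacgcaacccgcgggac
H2-Aa, chr17:34287824-34287973, minus strand: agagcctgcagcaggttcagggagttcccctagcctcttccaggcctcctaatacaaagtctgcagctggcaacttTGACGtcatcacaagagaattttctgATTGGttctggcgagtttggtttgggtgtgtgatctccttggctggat

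The TGACG began 78 bases before the start site in B2m, 41 in H2-K1, 101 in H2-D1 and 74 in H2-Aa. RefSeq gives H2-K1 a second start site, from which the TGACG lies 55 bases away. The gap was 20 bases in the class I genes and 21 in H2-Aa. H2-K1 and H2-D1 also shared an unbroken run of 37 bases, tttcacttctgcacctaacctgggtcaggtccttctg, whereas no other pair of these 4 stretches shared more than 7. The windows of Tap1, Psmb8, Psmb9 and Psmb10 did not hold the spaced pair. The interferon-stimulated response element, in the exact letters given above, was found in B2m alone and in 3.44% of all windows. It was searched on both strands, as were all single motifs. Looser forms of the element were not searched, so the other windows, those of H2-K1 and H2-D1 included, may still hold them. The interferon gamma element TTCNNNGAA was found in Psmb8 alone, 97 bases before the start, and in 8.30% of all windows. TGACG and CCAAT alone occurred in 20.8% and 37.4% of windows. A match of letters says nothing of binding.

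The depth recovered from the FPKM values was 14199909 to 17561589 fragments per sample. Mitochondrial genes took 14.5% to 18.2% of fragments at 0 d and 6.70% to 17.1% later, which scales the FPKM of all other genes. Among the 11943 genes that averaged 1 FPKM or more, the median log2 change against 0 d was 0.12 at 1 d, 0.20 at 3 d and 0.24 to 0.32 from 5 d on. After rescaling by median ratios these medians lay between -0.02 and 0.03. Of the genes that passed the test, 68.7% to 79.5% were higher than at 0 d on the deposited scale, against 44.8% to 49.6% after median-ratio scaling. The tissue label fitted its markers, since 6 muscle genes summed to 20573 to 42597 FPKM per sample. The extraction text of the labels names retinas, but 4 photoreceptor genes summed to at most 0.222 FPKM. Sample a of 3 d stood apart on the first principal component, at -20.3 against 0.18 to 5.96 for the others of its group. It was the lowest of its group for 10 of the 10 genes, while sample d of 1 d was the highest of its group for 9.

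Cd74 and H2-Aa fell at 3 d and then rose to the largest changes among the 10 genes. The level of Cd74 was 37.2, 31.2, 42.3 and 39.1 FPKM in the 4 samples of 0 d and 38.8, 36.7, 31.3 and 40.6 at 1 d. At 3 d it was 14.4, 19.2, 29.5 and 25.1, with 4 of 4 samples below every sample of 0 d. It then stood at 63.7, 67.6, 67.4 and 85.0 FPKM at 5 d and at 133, 97.5, 92.2 and 142 at 7 d. From 5 d on no sample overlapped the reference group. At 14 d Cd74 had 106, 158, 129 and 154 FPKM, at 21 d 135, 157, 108 and 133, and at 28 d 149, 153, 124 and 137. The mean went from 37.5 ± 4.69 FPKM (SD, n = 4) at 0 d to 22.03 ± 6.62 at 3 d and 141 ± 13.02 at 28 d.

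H2-Aa followed the same course at a lower level. It had 14.4, 8.57, 11.7 and 13.3 FPKM at 0 d, 11.8, 10.7, 8.68 and 11.3 at 1 d, and 5.52, 6.09, 10.2 and 8.04 at 3 d, where 3 of 4 samples lay below the reference group. At 5 d it had 23.1, 21.2, 20.7 and 23.6 FPKM, and at 7 d 39.96, 28.3, 33.2 and 50.2. Late levels were 37.0, 50.1, 40.5 and 50.3 at 14 d, 52.7, 58.7, 39.5 and 48.9 at 21 d, and 58.3, 58.4, 49.7 and 47.5 at 28 d. The groups no longer overlapped with 0 d from 5 d on. Over the 32 samples Cd74 and H2-Aa had a Pearson r of 0.988 on the log2 scale, which is a description, since the samples share the time course and the scaling.

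**Figure D1:**
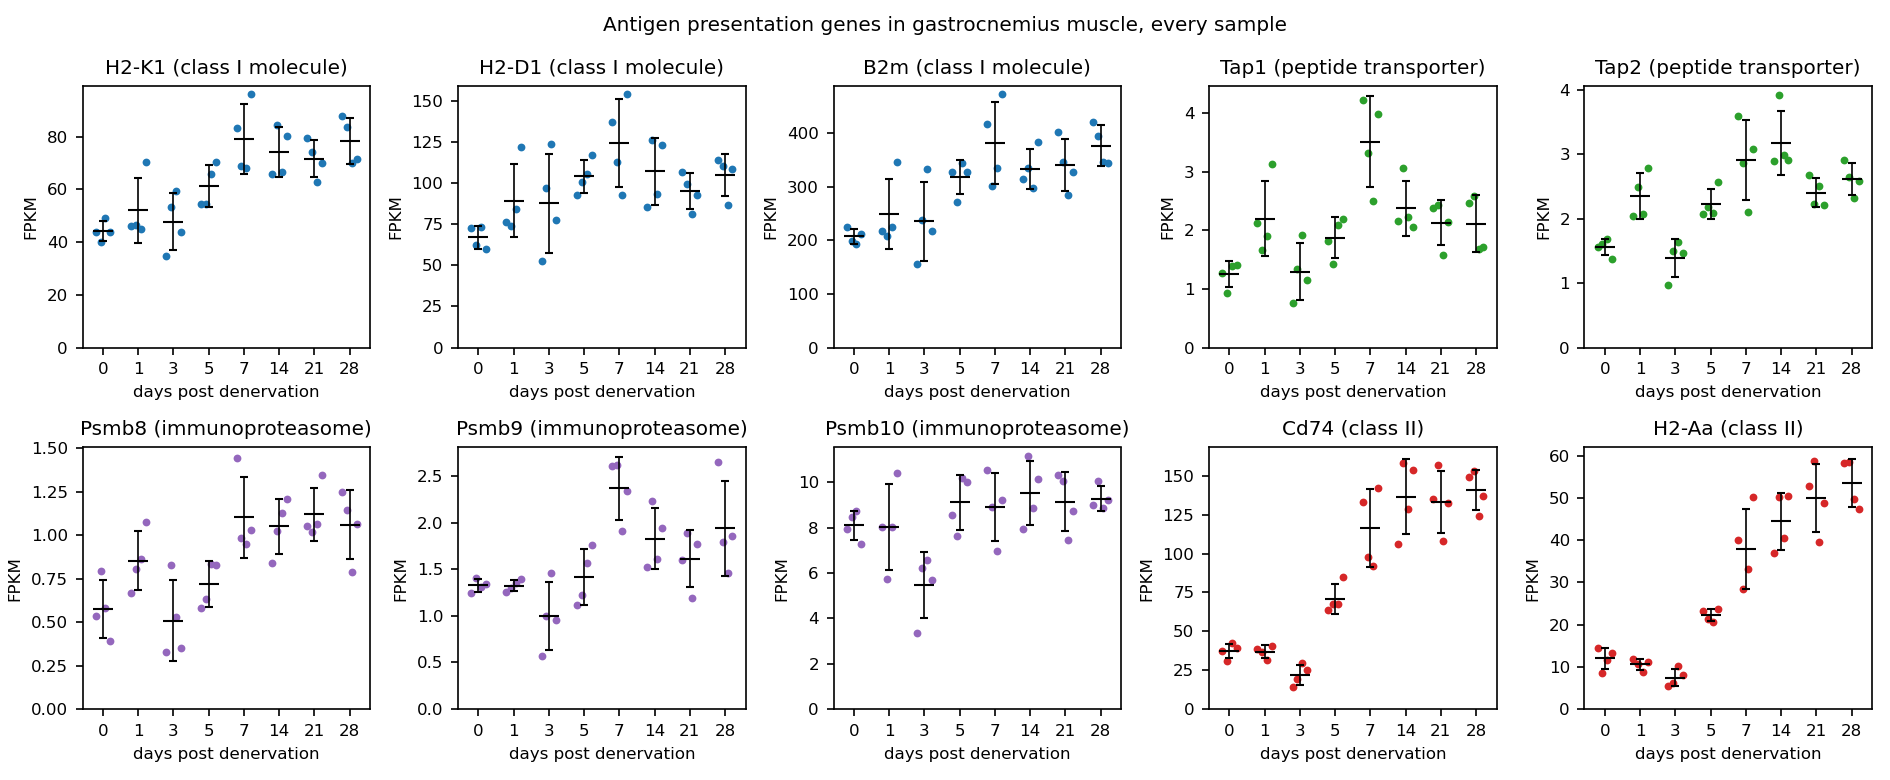
FPKM of each of the 10 genes (vertical axis, from 0) against days post denervation (horizontal axis, not to scale), with a point for each sample and black bars for the mean ± SD of 4 samples. Cd74 and H2-Aa dip at 3 d and reach their highest means, 141 and 53.5 FPKM, at 28 d, while most class I genes have theirs at 7 d.

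Changes were tested with limma on log2(FPKM + 1) in a fit of all 32 samples. A gene was called when its Benjamini-Hochberg adjusted p over all 22071 genes was under 0.05 and its change at least 1.5-fold. At 3 d the log2 change of Cd74 was -0.78 ± 0.17 (SE, adjusted p = 0.000385) and that of H2-Aa -0.63 ± 0.17 (adjusted p = 0.00278). These were the 2 of 10 genes called at 3 d, both lower, where 19.3% of all genes tested were called, 6.03% lower and 13.2% higher. Without sample a of 3 d the value of Cd74 was -0.60 and stayed called, while that of H2-Aa was -0.52 and did not. H2-Aa also lost its call without sample b of 3 d or without sample 1 or 4 of 0 d. From 1 d to 3 d Cd74 was the 1 of 10 genes called (-0.76, adjusted p = 0.000836), lower, a call lost without sample a of 3 d (-0.58), and 10.6% of all genes were called, 6.63% higher and 3.93% lower. From 3 d to 5 d Cd74 rose by 1.68 ± 0.17 (adjusted p = 2.16e-08) and H2-Aa by 1.49 ± 0.17 (adjusted p = 1.34e-07). With Psmb10 they were the 3 of 10 called at that step, all higher, where 5.76% of all genes were called, 3.72% higher and 2.05% lower. From 5 d to 7 d the rises were 0.69 (adjusted p = 0.0271) and 0.72 (adjusted p = 0.0192). Both calls were lost without sample b or c of 5 d or sample a or d of 7 d, and that of Cd74 also without sample a of 5 d, with values of 0.58 to 0.70. With Tap1 they were the 3 of 10 called at that step, where 0.657% of all genes were called, 0.449% higher and 0.208% lower. Limma called no change between neighbouring time points after 7 d for any of the 10 genes, nor did limma-voom, and the unadjusted p was under 0.05 for 2, 1 and 0 of 10 at the 3 steps, where the 3 steps had 0.634%, 0.453% and 0.199% of all genes called (0.376%, 0.0906% and 0.159% higher, 0.258%, 0.362% and 0.0408% lower). At 28 d Cd74 stood 1.89 ± 0.17 above 0 d (adjusted p = 2.83e-10) and H2-Aa 2.08 ± 0.17 (adjusted p = 2.98e-11). Both kept their calls at 7, 14, 21 and 28 d under median-ratio scaling, but not at 5 d.

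The partners of the class II molecule were measured as a list of 11 genes. H2-Ab1 and H2-Eb1, which code for class II beta chains, also had their lowest mean at 3 d and their highest at 28 d. H2-Ab1 had a mean of 14.6 FPKM at 0 d, 9.16 at 3 d and 60.2 at 28 d, and H2-Eb1 had 17.3, 11.7 and 80.2 FPKM. H2-Ab1 fell by 0.64 on the log2 scale at 3 d (adjusted p = 0.00621). H2-Eb1 had a value of -0.56 at 3 d and was not called. H2-DMa and H2-DMb1, whose products exchange the Cd74 fragment for peptide, were called higher from 7 d on, with log2 changes of 0.91 and 1.19 at 28 d. H2-DMb2 was called at 28 d. The proteases Ctss and Lgmn, which cut Cd74 and antigens in lysosomes, were already higher at 3 d, when the class II chains were low: their log2 changes were 1.83 and 1.73. Lgmn had been called higher at 1 d (0.96, adjusted p = 0.00422), where Ctss had 0.93 and was not called. Of the list, 2 were called higher and 1 lower at 3 d, and 7 higher and 0 lower at 28 d, where the shares over all genes were 13.2% higher and 6.03% lower at 3 d, and 14.2% and 4.1% at 28 d. The median log2 change of the list was -0.12 at 3 d and 0.91 at 28 d, against 0.06 and 0.14 over all genes tested. Over the genes averaging 1 FPKM or more, it was 0.20 and 0.30. Ifi30, the lysosomal thiol reductase, was called lower at 7 d (-0.78, adjusted p = 0.0446). H2-Eb2, H2-Oa and H2-Ob were not called at any time.

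Macrophage markers, taken as a sum, moved in a different order from Cd74 and H2-Aa. Lyz2 made up most of this sum, with a mean of 118 FPKM at 0 d and 399 at 3 d. Single markers differed: from 3 d to 5 d Cd68 went from 123 to 58.8 FPKM and was called lower. In that step Adgre1, Csf1r, C1qa and Fcgr1 had rising means and Itgam, Lyz2 and Mrc1 falling ones, none called. The sum of 8 macrophage markers had a mean of 177 FPKM at 0 d (range 140.2 to 208), 258 at 1 d (222 to 347), 676 at 3 d (289 to 991), 613 at 5 d (563 to 704), 731 at 7 d (395 to 1193), 625 at 14 d (401 to 939), 477 at 21 d (406 to 573) and 503 at 28 d (458 to 543). From 1 d on, 4 of 4 samples of each group were above every sample of 0 d. Cd74 per unit of this sum went from 0.213 ± 0.0224 (SD, n = 4) at 0 d down to 0.0378 ± 0.0149 at 3 d, and had reached 0.178 ± 0.0517 by 7 d and 0.281 ± 0.0363 by 28 d. The sum of 7 dendritic cell markers had its lowest mean at 3 d through Cd209a, which had 2.42 FPKM at 0 d and 1.53 at 3 d, whereas 5 of the other 6 markers had higher means at 3 d than at 0 d, and limma called 0 of 7 at 3 d (1 with an unadjusted p under 0.05). Per unit of that sum Cd74 had 7.85 ± 0.891 at 0 d, 4.81 ± 0.742 at 3 d and 14.9 ± 1.15 at 28 d. Per unit of the endothelial markers, which were themselves low at 3 d, it had 0.452 ± 0.0669, 0.397 ± 0.0990 and 2.39 ± 0.0662, and the 0 d and 3 d samples overlapped. The low point of Cd74 at 3 d came while the macrophage sum was high. The late level of Cd74 came while that sum was below its means of 3 and 7 d. The dendritic cell sum ranged from 3.58 to 5.60 FPKM at 0 d, 3.39 to 5.35 at 3 d, 6.83 to 12.0 at 7 d and 9.20 to 9.63 at 28 d. The 5 B cell markers summed to at most 1.65 FPKM in any sample, with a mean of 0.658 at 0 d and 0.638 at 28 d. The 6 T cell markers had a summed mean of 0.480 FPKM at 0 d and 1.30 at 28 d, and limma called 0 of 6 at 28 d, where 5 of 6 had an unadjusted p under 0.05, 4 of them higher and Cd3e lower (0.144 FPKM at 0 d and 0.0398 at 28 d). Cd3d was at 0 in every sample of 0 d and Cd3e in every sample of 3 d. The 4 endothelial markers summed to 77.2 to 88.5 FPKM at 0 d and to 45.3 to 63.0 at 3 d. The part of these cells in the course of Cd74 and H2-Aa was not tested.

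**Figure D2:**
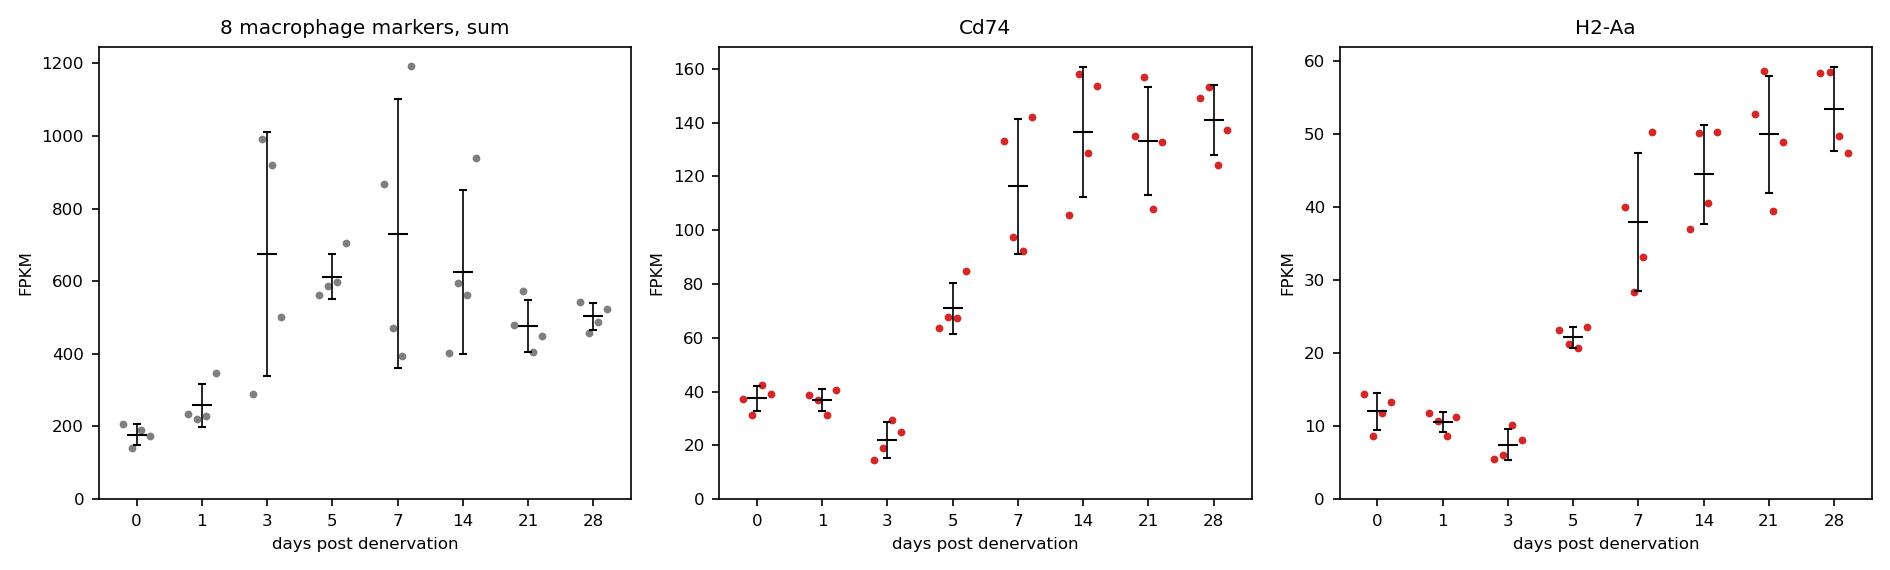
FPKM (vertical axes, from 0) against days post denervation (horizontal axis, not to scale) for the sum of 8 macrophage markers, for Cd74 and for H2-Aa, with a point per sample and black bars for the mean ± SD of 4 samples. The marker sum has a mean of 676 FPKM at 3 d, where Cd74 has its lowest mean, 22.03 FPKM.

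Of the class I molecule genes, B2m and H2-D1 were first called at 5 d and H2-K1 at 7 d. The markers of muscle and of leukocytes had shifted by 1 d. The 6 muscle genes summed to a mean of 41111 FPKM at 0 d, 22992 at 3 d and 26002 at 28 d, with 4 of 4 samples below every sample of 0 d at each later time. The 4 leukocyte markers summed to 12.62 FPKM at 0 d (range 10.3 to 15.5), 35.7 at 3 d (11.4 to 51.9) and 34.6 at 28 d (31.7 to 37.4). B2m per unit of the leukocyte sum was 16.7 ± 2.14 at 0 d, 7.98 ± 3.85 at 3 d and 10.9 ± 0.476 at 28 d, and per unit of the macrophage sum 1.19 ± 0.180, 0.393 ± 0.125 and 0.752 ± 0.0890. The part of these cells in the class I changes was not tested. B2m, the light chain of every class I molecule, was the most abundant of the 10 genes. It had 225, 199.8, 193 and 212 FPKM at 0 d, 218, 208, 225 and 346 at 1 d, and 155, 238, 332 and 217 at 3 d. These 3 groups overlapped, and sample d of 1 d stood high. At 5 d it had 327, 272, 344 and 328 FPKM, and at 7 d 417, 302, 336 and 472, all above every sample of 0 d. The levels at 14 d were 315, 336, 298 and 384, at 21 d 402, 347, 285 and 328, and at 28 d 421, 396, 346 and 345 FPKM. B2m was called at 5, 7, 14, 21 and 28 d, with log2 changes of 0.61, 0.86, 0.68, 0.70 and 0.85, each with an SE of 0.17. The call at 5 d was lost without sample 3 of 0 d (0.58) or sample c of 5 d (0.57).

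H2-K1, a classical heavy chain, had 43.9, 39.9996, 49.1 and 43.7 FPKM at 0 d. It had 46.1, 46.6, 45.1 and 70.4 at 1 d and 34.6, 53.2, 59.5 and 43.8 at 3 d, both overlapping with the reference group. The values were 54.4, 54.4, 65.7 and 70.2 at 5 d and 83.4, 68.8, 68.3 and 96.1 at 7 d, which no longer overlapped with it. Later values lay between 63.0 and 87.7 FPKM. H2-K1 was called at 7, 14, 21 and 28 d, with log2 changes of 0.82, 0.73, 0.68 and 0.81 (SE 0.15). Its value at 5 d, 0.46, had an adjusted p of 0.0127 but stayed under 1.5-fold.

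H2-D1, the other classical heavy chain of this strain, had 73.0, 62.3, 73.2 and 59.7 FPKM at 0 d and 137, 113, 92.9 and 154 at 7 d. It had 76.6, 74.1, 84.4 and 122 FPKM at 1 d, above the reference group in 4 of 4 samples, but its log2 change of 0.38 ± 0.19 was not called (adjusted p = 0.147). At 3 d the values of 52.9, 97.2, 124 and 77.5 spread on both sides of it. H2-D1 was called at 5, 7, 14 and 28 d, with log2 changes of 0.63, 0.86, 0.65 and 0.64 (SE 0.19), and had 0.50 at 21 d (adjusted p = 0.0377). The call was lost without sample 4 of 0 d at 5 d (0.58) and 28 d (0.58), without sample d of 5 d (0.57), and at 14 d without its sample b (0.57) or d (0.58). Over 14, 21 and 28 d together the value was 0.60, and leaving out any of 6 samples took it under 1.5-fold, to 0.54 to 0.58.

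**Figure D3:**
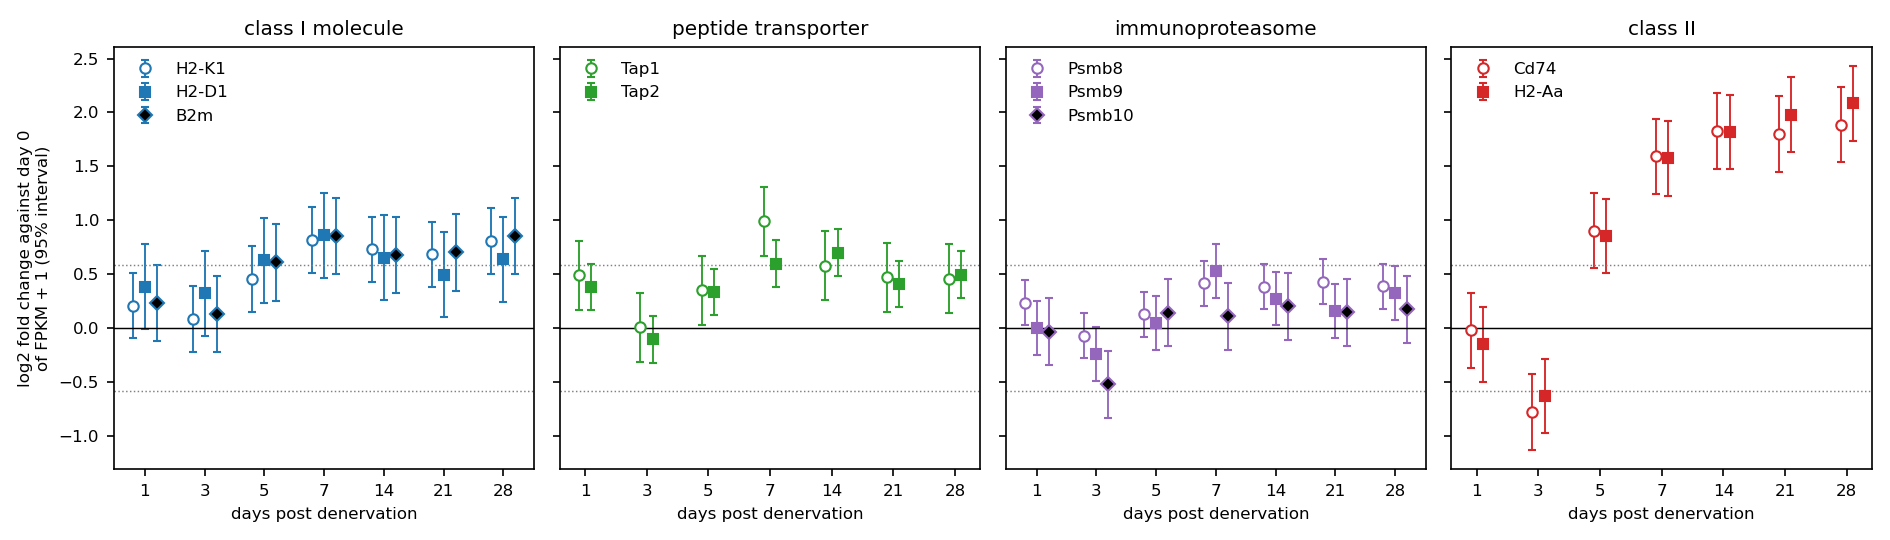
Log2 fold change of FPKM + 1 against 0 d (vertical axis) at each later time point (horizontal axis, not to scale) for the 10 genes in 4 panels, with bars for the 95% confidence interval from limma and dotted lines at 1.5-fold. The class II pair goes from below 0 at 3 d to 1.89 and 2.08 at 28 d, and the immunoproteasome panel has its points under 1.5-fold throughout.

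The calls against 0 d over all 10 genes came to 0 at 1 d, where 8.84% of all genes were called, 6.34% higher and 2.49% lower. At 1 d 3 of 10 had an unadjusted limma p under 0.05 (Tap1, Tap2 and Psmb8), and limma-voom called Tap1 and Tap2. At 3 d the calls were the 2 lower genes. At 5 d 4 of 10 were higher, and 18.8% of all genes were called, 14.9% higher and 3.86% lower. At 7 d 7 of 10 were higher, against 19.5% of all genes called, 15.4% higher and 4.1% lower. The count was 6 at 14 d, against 18.5% (14.6% higher, 3.83% lower). It was 4 at 21 d, against 15.7% (11.8% higher, 3.93% lower), and 5 at 28 d, against 18.3% (14.2% higher, 4.1% lower). The 14, 21 and 28 d samples together had 5 of 10 higher, against 17.2% (13.3% higher, 3.91% lower), namely H2-K1, H2-D1, B2m, Cd74 and H2-Aa. These comparisons share the samples of 0 d. The 4 samples of a group lay above every sample of 0 d for 3 of 10 genes at 1 d (H2-D1, Tap1 and Tap2), where 19.9% of all genes did and 8.6% lay wholly below. At 3 d this held for 0 of 10, against 23% of all genes, while Psmb10 and Cd74 lay wholly below, as did 12.3%. The count above was 7 at 5 d (35.9% of all genes above, 8.93% below) and 9 at 7 d (32.4% above, 8.47% below). It stayed high later, with 9 at 14 d (36.8% and 8.13%), 8 at 21 d (32.9% and 9.99%) and 9 at 28 d (36.6% and 9.06%). Under median-ratio scaling none of H2-K1, H2-D1 and B2m was called at any time, and the calls fell to 0 at 5 d, 3 at 7 d (Tap1, Cd74 and H2-Aa) and 2 at 14, 21 and 28 d (Cd74 and H2-Aa). Quantile normalization also lowered the counts, to 1 at 5 d and to 2 at 14 and 21 d. TPM, limma-voom and a pseudocount of 0.1 raised some of them. At 21 d they came to 8 as TPM and to 7 by limma-voom or with a pseudocount of 0.1, at 28 d to 8 under each of these, and at 5 d to 7 as TPM. From 7 d on, the log2 changes of H2-K1, H2-D1 and B2m, 0.50 to 0.86, stand beside the median shift of 0.24 to 0.32 of all genes averaging 1 FPKM or more.

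The other class I heavy chains were followed as a list. Of 10 genes listed, 9 were in the table and 8 were tested. H2-Q6 was lower at 3 d, with a log2 change of -0.88 (adjusted p = 0.00419). H2-Q4, H2-Q7, H2-T23 and H2-M3 were higher at 7 d, and H2-M3 alone at 14 d. Limma called no gene of the list at 21 or 28 d, where 5 and 4 of 8 had an unadjusted p under 0.05. Shares of all genes called, in either direction, were 19.3% for 3 d, 19.5% for 7 d and 18.5% for 14 d. For 21 and 28 d these shares were 15.7% and 18.3%. The list's median log2 change was -0.33 at 3 d and had reached 0.57 by 7 d, against 0.06 and 0.13 over all genes tested. Over the genes averaging 1 FPKM or more, the median was 0.20 and 0.32.

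Of 7 genes for loading class I molecules, 4 were called higher at 3 d, 6 at 7 d and 5 at 28 d, with none lower. Those of 3 d were Calr, Canx, Pdia3 and Hspa5, and not Tapbp, Tapbpl or Erap1. The shares of all genes called higher were 13.2%, 15.4% and 14.2%. The list's median log2 change was 0.98, 0.69 and 0.72, against 0.06, 0.13 and 0.14 over all genes tested. Over the genes averaging 1 FPKM or more, it was 0.20, 0.32 and 0.30. Calr and Hspa5, general chaperones of the endoplasmic reticulum, and Pdia3, a disulphide isomerase, were called at every time point from 1 d on, and the chaperone Canx from 3 d on. Hspa5 had a mean of 48.9 FPKM at 0 d, 174 at 3 d and 106 at 28 d, a log2 change of 1.81 at 3 d. Tapbp, which ties the empty class I molecule to the transporter, took another course: it had 8.84 FPKM at 0 d, 8.49 at 3 d and 15.0 at 7 d, and was called at 7 d (0.68, adjusted p = 0.000106). Tapbpl, its relative, was called from 7 d on. Erap1, which trims peptides, was not called at any time.

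Tap1 and Tap2, the chains of the peptide transporter, were higher at 1 d than at 0 d in every sample, overlapped with 0 d at 3 d and were called higher at 7 d. Tap1 had 1.28, 0.930, 1.40 and 1.41 FPKM at 0 d and 2.12, 1.66, 1.90 and 3.13 at 1 d, without overlap. At 3 d it had 0.763, 1.34, 1.93 and 1.16, and at 7 d 4.23, 3.32, 2.501 and 4.00, its highest mean. Tap2 had 1.56, 1.61, 1.68 and 1.38 FPKM at 0 d, 2.05, 2.49, 2.07 and 2.79 at 1 d and 0.967, 1.502, 1.64 and 1.47 at 3 d. It had 3.59, 2.86, 2.11 and 3.08 at 7 d and 2.89, 3.91, 2.98 and 2.91 at 14 d. Both genes lay above the reference group in 4 of 4 samples at every time point but 3 d. The log2 changes at 1 d were 0.49 ± 0.16 for Tap1 (adjusted p = 0.0160) and 0.38 ± 0.11 for Tap2 (adjusted p = 0.00549), both under 1.5-fold on this scale. Tap1 was called at 7 d (0.99 ± 0.16, adjusted p = 4.88e-06) and Tap2 at 7 d (0.60 ± 0.11) and 14 d (0.70 ± 0.11). The call of Tap2 at 7 d was lost without sample 4 of 0 d (0.57) or sample a (0.52) or d (0.57) of 7 d. From 5 d to 7 d Tap1 rose by 0.64 (adjusted p = 0.0244), a call lost without sample a or b of 5 d or sample a or d of 7 d. The pseudocount of 1 shrinks changes at these levels. With a fit of the recovered fragments by limma-voom, Tap1 and Tap2 were called at 1, 7, 14, 21 and 28 d.

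None of the inducible proteasome subunits was called against 0 d on the log2(FPKM + 1) scale, which shrinks changes at the low levels of Psmb8 and Psmb9. Psmb8 had 0.537, 0.793, 0.581 and 0.391 FPKM at 0 d, 0.328, 0.831, 0.527 and 0.351 at 3 d and 1.45, 0.982, 0.951 and 1.03 at 7 d. At 28 d it had 1.25, 1.14, 0.787 and 1.06, of which 3 of 4 lay above the reference group. These values rest on 17 to 82 fragments per sample. The log2 change was 0.42 ± 0.10 at 7 d (adjusted p = 0.00123) and 0.39 ± 0.10 at 28 d (adjusted p = 0.00230), under 1.5-fold on the FPKM + 1 scale. By limma-voom on fragments it was 0.95 at 7 d and 0.90 at 28 d, and Psmb8 was called at 7, 14, 21 and 28 d.

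Psmb9 had 1.24, 1.41, 1.31 and 1.34 FPKM at 0 d and 0.571, 0.996, 1.46 and 0.955 at 3 d. It was highest at 7 d, with 2.61, 2.61, 1.90 and 2.34 FPKM, where no sample overlapped the reference group and the log2 change was 0.53 ± 0.12 (adjusted p = 0.000649). Without the pseudocount, the mean FPKM of Psmb9 at 7 d was 1.78 times that of 0 d. Psmb10 had 7.96, 8.49, 8.72 and 7.28 FPKM at 0 d and 3.37, 6.24, 6.59 and 5.70 at 3 d, all 4 below the reference group. Its log2 change of -0.52 ± 0.15 at 3 d (adjusted p = 0.00570) did not reach 1.5-fold and was called under median-ratio scaling (-0.74). Psmb10 rose from 3 d to 5 d by 0.67 ± 0.15 (adjusted p = 0.00143), a call lost without sample a of 3 d (0.49). Over 14, 21 and 28 d its value against 0 d was 0.18 ± 0.12 (adjusted p = 0.248) and -0.15 under median-ratio scaling.

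The constitutive subunits rose at 3 d, when none of the inducible ones did. Psmb5 had a mean of 33.9 FPKM at 0 d, 104 at 3 d and 94.3 at 28 d, and its log2 change was 1.59 at 3 d and 1.45 at 28 d. Psmb6 had 64.5, 135 and 116 FPKM, and Psmb7 49.995, 96.9 and 71.1. All 3 were called higher at 3, 5, 7 and 14 d, and Psmb5 and Psmb6 also at 21 and 28 d. Of all genes tested, 13.2%, 14.9%, 15.4%, 14.6%, 11.8% and 14.2% were called higher at these 6 time points. Each inducible subunit was set against the constitutive subunit whose place it takes. Psmb8 came to 1.68% ± 0.358 of Psmb5 at 0 d, to 0.497% ± 0.236 at 3 d and to 1.13% ± 0.223 at 28 d. Psmb9 came to 2.06% ± 0.183 of Psmb6 at 0 d, 0.761% ± 0.324 at 3 d and 1.67% ± 0.440 at 28 d. Psmb10 came to 16.5% ± 3.09 of Psmb7, then 5.91% ± 2.18 and 13.1% ± 1.24. Merged exon lengths, which count long alternative exons, enter these percentages, so they compare time points and not subunits.

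The log2 ratios at 3 d differed from those at 0 d by -1.85 for Psmb8, -1.55 for Psmb9 and -1.56 for Psmb10. In each case 4 of 4 samples lay below every sample of 0 d (two-sided exact permutation test, p = 0.0286, the smallest that 4 against 4 samples allow). Adjusted over the 21 tests of 3 ratios and 7 time points, p was 0.0600, and 0 of 21 ratios passed 0.05. With a pseudocount of 1 added to both subunits, as in the fits of single genes, 17 of 21 passed. That pseudocount is near the levels of Psmb8 (0.328 to 1.45 FPKM) and Psmb9 (0.571 to 2.65) and shrinks their changes. Such a pass can therefore reflect mostly the constitutive subunit. The difference was negative in 20 of 21, the exception being Psmb8 to Psmb5 at 1 d (0.34), which turned to -0.0081 with the pseudocount of 1. Without a pseudocount, a ratio within a sample does not depend on the scaling of the sample. At 28 d the differences were -0.57, -0.33 and -0.32.

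**Figure D4:**
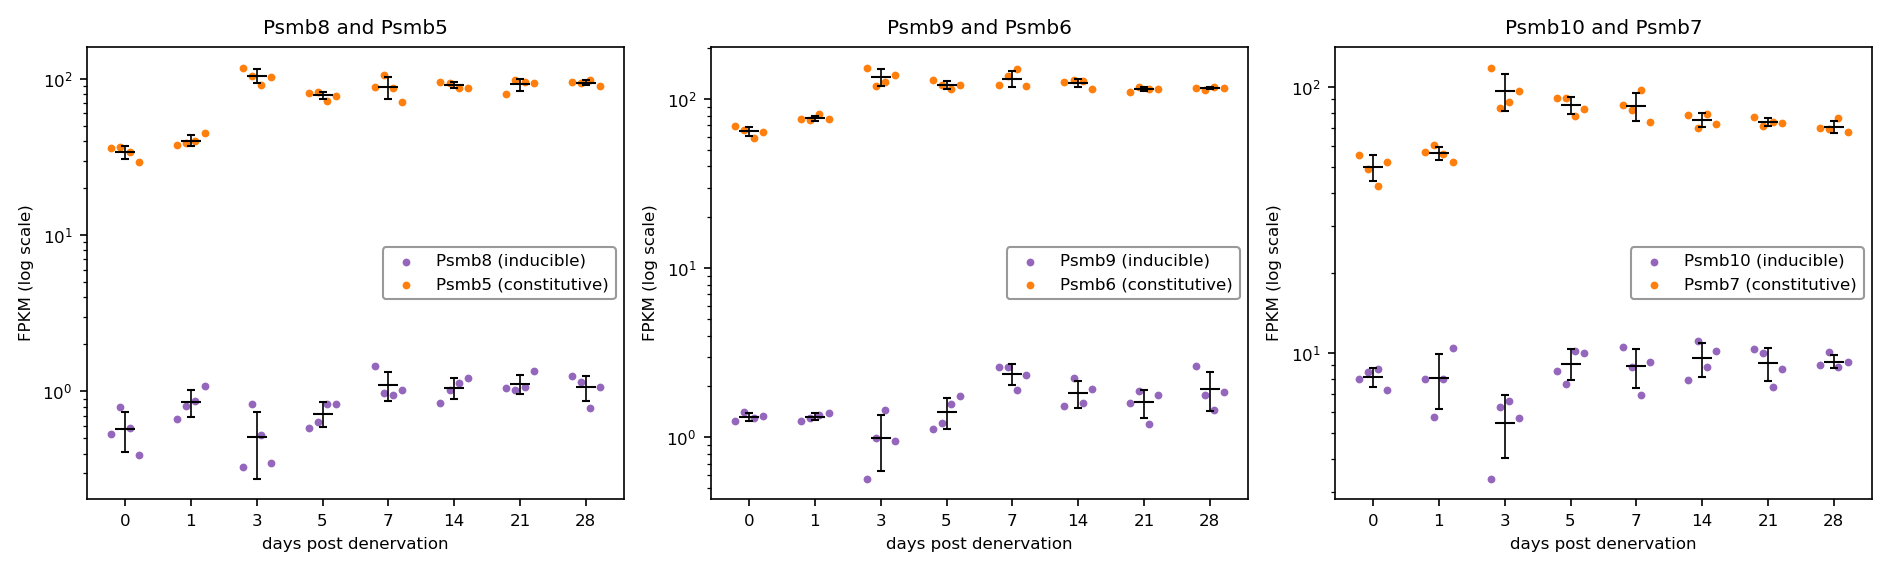
FPKM on a log scale (vertical axes) of each inducible subunit (purple) and the constitutive subunit whose place it takes (orange) against days post denervation (horizontal axis, not to scale), with a point per sample and black bars for the mean ± SD of 4 samples. At 3 d the constitutive subunits are up, as Psmb5 from 33.9 to 104 FPKM, and the inducible ones are not.

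Among 5 genes that activate or assemble the proteasome, Pomp, the maturation factor, was called at every time point from 3 d on, with a mean of 15.1 FPKM at 0 d and 40.8 at 7 d. Psme2, a subunit of the interferon-inducible activator PA28, was called at 5, 7 and 14 d (0.88 at 7 d). Its partner Psme1 was not called, with a log2 value of -0.50 at 3 d and 0.24 at 7 d. Psme3 was called at 3 and 5 d and Psme4 at 1 d.

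Of 14 regulators of MHC genes 13 were tested. Ciita, the master switch of class II genes, had a mean of 0.292 FPKM at 0 d, 0.286 at 3 d and 0.756 at 5 d, and was called from 7 d on, with log2 changes of 0.59 to 0.63. Nlrc5, its counterpart for class I genes, had 0.425 FPKM at 0 d and 0.804 at 1 d. That change was under 1.5-fold on the FPKM + 1 scale and not called (0.33, adjusted p = 0.00670). Nlrc5 had 0.454 FPKM at 3 d and was called at 7 d with 1.23 FPKM (0.64, adjusted p = 1.27e-06). Irf8, a factor of myeloid cells, was called from 5 d on. Irf1, an interferon-induced transcription factor, was at its lowest at 3 d, with a mean of 1.87 FPKM against 3.17 at 0 d. Its log2 value at 3 d was -0.56, under 1.5-fold. Ifngr2, a chain of the interferon gamma receptor, was called lower at 7, 14, 21 and 28 d, from 17.8 FPKM at 0 d to 9.20 at 28 d (-0.88). Ifng itself was listed at 0 in all samples of 0, 1 and 3 d and reached at most 0.0946 FPKM. Of 13 genes for T cell and NK cell receptors and co-stimulation, Cd86 was called at 7 d, Nkg7 at 21 d and Cd28 at 28 d.

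**Figure D5:**
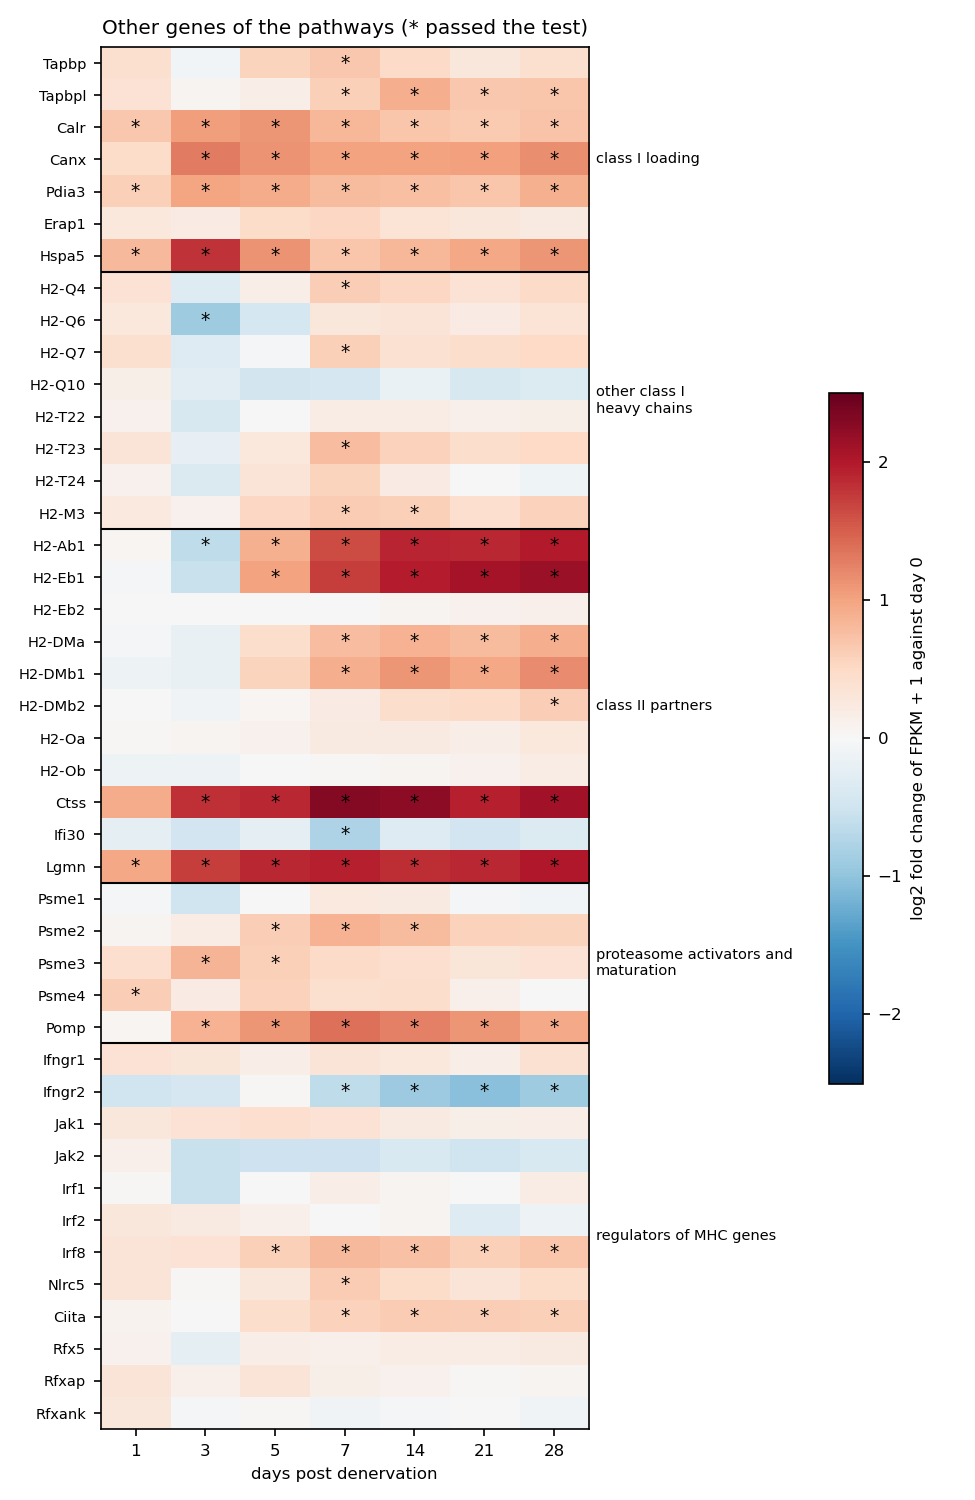
Log2 fold change of FPKM + 1 against 0 d (colour) for 43 further genes of the pathways (rows, in 5 lists) at each time point (columns, days post denervation), with an asterisk where the gene was called. H2-Ab1 and H2-Eb1 go from -0.64 and -0.56 at 3 d to 1.99 and 2.15 at 28 d.

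As a description, the 5 genes outside the lists whose log2 level was most like that of Cd74 over the 32 samples were Kansl1l (Pearson r = 0.963), Sh2d4a (0.960), Lman2l (0.960), Enho (0.959) and Kidins220 (0.953), among the 11943 genes averaging 1 FPKM or more. For B2m they were Ppt1 (0.914), Gm2a (0.908), Trove2 (0.906), Psip1 (0.906) and Lrrk2 (0.905), and for Psmb8 Hfe (0.841), Lrpap1 (0.830), Ssbp3 (0.828), Lsm14b (0.824) and Smpdl3b (0.808). Among the 10 genes, H2-K1 and B2m had an r of 0.954, and H2-D1 and H2-Aa had the lowest, 0.574.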

How the data were processed

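GAS muscles of 32 mouse samples were profiled by RNA-seq. The authors deposited FPKM values, 1 per gene and sample, and per the labels' processing notes CASAVA, HISAT2 2.1.0, DESeq2 and GRCm38 were used. The counter and its annotation are not given in the sources used here. FPKM multiplied by the merged exon length of GENCODE release M21 gave whole fragments (within 0.05) for 99.3% to 99.4% of values under 200 fragments per sample, for 33356 of 33397 genes. Replicates differed by more than sampling noise. Columns were assigned to time points by their headers, and those headed C were taken as 0 d.

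Values were tested on log2(FPKM + 1) with limma 3.58.1 (R 4.3.3, variance trend), and ratios by exact permutation (scipy 1.17.1). Simulated data with known changes were used to check this step. Depth was 14199909 to 17561589 fragments per sample. The members and gene lists were chosen with earlier results of these data known. A regulator counted in its list is not reported here by name. All members and the described list genes are named, with the 5 genes most like B2m, Psmb8 and Cd74. The design's alternatives covered pseudocount, filter, scaling, variance trend, samples fitted, limma-voom and leaving out each sample.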

Additional observations from a re-analysis of the deposited data

Results flagged for a closer look

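In groups of 4 samples, 5 of 80 combinations of gene and time point held a sample far from the others by Dixon's test, where chance gives about 1 in 20. Sample d of 1 d had 70.4 FPKM of H2-K1 against 45.1 to 46.6 in the others, and 346 FPKM of B2m against 208 to 225. Sample b of 14 d had 3.91 FPKM of Tap2 against 2.89 to 2.98. For Psmb8, sample a of 7 d had 1.45 FPKM against 0.951 to 1.03, and sample d of 21 d had 1.34 against 1.02 to 1.06.

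Neighbouring time points differed by the limma test as follows. Cd74 changed by -0.76 on the log2 scale from 1 d to 3 d (36.8 to 22.03 FPKM, adjusted p = 0.000836), by 1.68 from 3 d to 5 d (to 70.9 FPKM) and by 0.69 from 5 d to 7 d (to 116 FPKM). H2-Aa changed by 1.49 from 3 d to 5 d (7.45 to 22.2 FPKM) and by 0.72 from 5 d to 7 d (to 37.9 FPKM). Psmb10 changed by 0.67 from 3 d to 5 d (5.48 to 9.11 FPKM), and Tap1 by 0.64 from 5 d to 7 d (1.88 to 3.51 FPKM).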

How the results depend on the processing

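The counts of the 10 genes called moved with the scaling and with the pseudocount. Under median-ratio scaling they were 0 at 5 d, 3 at 7 d and 2 at 14, 21 and 28 d and over the late days together, and under quantile normalization 1 at 5 d, 2 at 14 d, 2 at 21 d and 3 over the late days. Rescaling to TPM gave 1 at both 1 d and 3 d, 7 at 5 d, 8 at 21 d, 28 d and over the late days, 3 from 1 d to 3 d and 1 from 5 d to 7 d. A pseudocount of 0.1 gave 1 at 1 d, 7 at 21 d, 8 at 28 d and over the late days and 4 from 1 d to 3 d. Limma-voom on recovered fragments gave 2 at 1 d, 7 at 21 d, 8 at 28 d and over the late days and 4 from 1 d to 3 d. Fitting only the groups compared gave 0 from 5 d to 7 d. Other filters and a fit without the variance trend left each count within 1.5 times. Psmb10 over the late days turned to -0.15 under median-ratio scaling and -0.12 under quantile normalization, neither called. With a pseudocount of 1, which is near the levels of Psmb8 and Psmb9, 17 of the 21 subunit ratios passed an adjusted p of 0.05. The ratio of Psmb8 to Psmb5 at 1 d turned to -0.0081.

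Among all genes, limma-voom called 3625 at 1 d against 1950, 6965 at 3 d against 4254, 7069 at 5 d against 4148, 7368 at 7 d against 4308, 7310 at 14 d against 4075, 6155 at 21 d against 3466 and 7370 at 28 d against 4049. A pseudocount of 0.1 called 3621 to 7277 and TPM, except at 3 d, 3313 to 7610.

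Leaving out each sample in turn gave 0 calls at 1 d, 1 to 3 at 3 d, 3 to 4 at 5 d, 6 to 8 at 7 d, 5 to 7 at 14 d, 4 at 21 d, 4 to 5 at 28 d and over the late days, 0 to 3 from 1 d to 3 d, 2 to 4 from 3 d to 5 d, 0 to 3 from 5 d to 7 d, and 0 at later steps. It also gave 0 for the ratios, which says nothing of their stability, since an exact test of 3 against 4 samples cannot reach 0.05. The count at 3 d was 1 without sample 1 or 4 of 0 d or sample a of 3 d and 3 without sample c of 3 d. From 1 d to 3 d it was 0 without sample a of 3 d, 2 without sample b of 1 d and 3 without sample c of 3 d, and from 3 d to 5 d it was 2 without sample a of 3 d. From 5 d to 7 d it was 0 without sample b of 5 d or sample a or d of 7 d and 1 without sample a or c of 5 d. Among the 70 changes of the 10 genes that were refitted this way, none turned its sign. Changes of other genes were not refitted.

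The cause of these shifts was not tested. No paired analysis was possible because the columns carry letters that no source ties to the numbers of the labels. Counting depth limits Psmb8, with 17 to 82 fragments per sample, more than B2m, with 2046 to 6311.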
